A study of Caenorhabditis elegans with 44 samples.

Results

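miR-49 and miR-83 are microRNAs of *Caenorhabditis elegans* whose 3p strands carry the seed of mammalian miR-29. They were taken as every row of the deposited count table named miR-49 or miR-83, with either strand suffix. The rule found 4 strands (miR-49-3p, miR-49-5p, miR-83-3p and miR-83-5p) among 437 in the table, and all 4 had a mean of at least 10 counts, the minimum that left 272 strands for testing. The animals were untreated wild-type worms of strain N2, grown from synchronized L1 larvae at 25 °C. RNA of whole worms was collected every hour from 5 h to 48 h after plating, with 1 library per hour and 44 libraries in all.

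A microRNA is cut from a hairpin precursor whose arms give a 5p and a 3p strand. The guide strand is usually the one that an Argonaute protein keeps, while the passenger strand is mostly lost, and the guide binds target mRNAs through the seed, the short stretch behind its 5′ end. In mammals, miR-29 is known for repressing mRNAs of collagens and other proteins of the extracellular matrix. In *C. elegans*, miR-83 acts together with miR-34 in the migration of the distal tip cells that shape the gonad, and it is known as a secreted regulator of autophagy in ageing worms. For both hairpins the 3p strand was the more abundant one in all 44 libraries and is called the guide here. The mature sequences were not used here, so the shared seed is given from general knowledge and not from the files.

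In the WBcel235 annotation, which is not the ce10 build that the authors used, mir-49 (WBGene00003277) lies on the plus strand of chromosome X from 9989282 to 9989378. Its mature strands are placed at 9989302 to 9989324 and at 9989342 to 9989363. The hairpin is intergenic. Its nearest protein-coding neighbours are F19C6.5, 4343 bases to the left, and grk-1, 1870 bases to the right, both on the opposite strand. The mir-83 hairpin (WBGene00003311) lies on the plus strand of chromosome IV from 7841631 to 7841728, with mature strands at 7841647 to 7841669 and at 7841691 to 7841712. It overlaps the non-coding RNA C06A6.9 on the same strand by 21 bases. Its nearest protein-coding neighbours are C06A6.7, 3105 bases to the left on the opposite strand, and C06A6.2, 4894 bases to the right on the same strand. The members of the family are thus encoded on separate chromosomes, and each hairpin gave reads from both arms.

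The highest library total was 14672735 counts. At 38 h the total was 1669246 counts, and every other library held at least 7059421. Levels are normalised counts, that is, counts scaled to the mean library total. The 95% Poisson intervals account for the counting error of reads alone. PCR copies of a molecule are counted as separate reads, which the intervals leave out of account. With 1 library per hour there were no replicates. Each p-value therefore rests on how far the hourly libraries scatter around a fitted curve within this single time course. In RNA of whole worms, fewer cells of a type and less RNA per cell cannot be told apart. The 8 guides of the miR-35 family took 0.490% of all counts at 36 h and 13.2% at 48 h, which leaves a smaller share of each late library for all other strands. The annotated mature strands of miR-49 and miR-83 are 22 or 23 bases long, so levels were not divided by length, and adapter ligation can favour some sequences over others.

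The guides were of middling abundance and close to each other on average. The mean level over the 44 libraries was 4558 normalised counts for miR-83-3p and 4254 for miR-49-3p, ranks 80 and 81 of the 272 tested strands. Their ranges over the course overlapped widely, and their order differed between libraries. Within a library miR-83-3p was the higher guide in 33 of the 44 and miR-49-3p in 11. miR-49-3p was lowest at 46 h with 1159 and highest at 6 h with 12518, around a median of 3561. miR-83-3p was lowest at 47 h with 2151 and highest at 6 h with 7394, around a median of 4707. Both guides were thus highest in the same early library and lowest within 1 h of each other at the end, but the highest level was 10.8-fold the lowest for miR-49-3p and 3.44-fold for miR-83-3p.

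**Figure D1:**
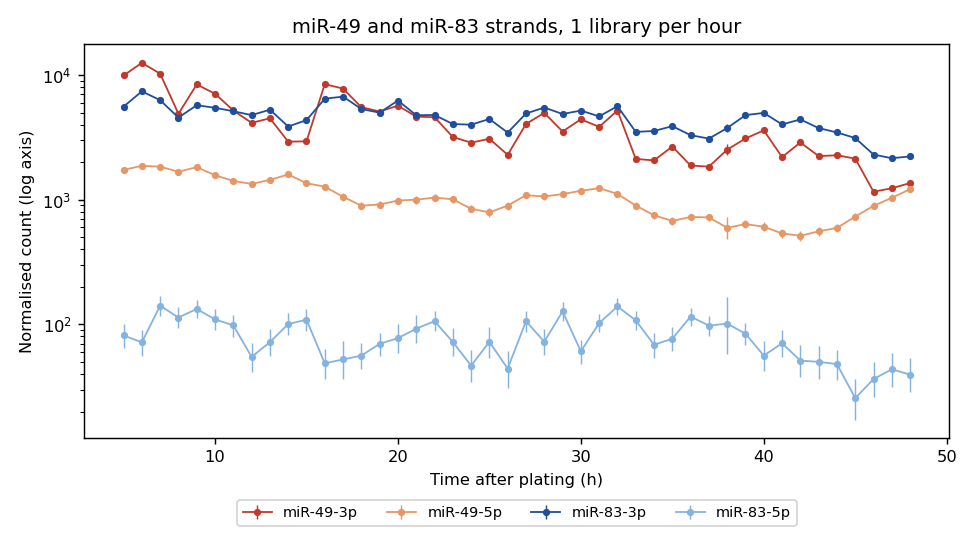
Normalised counts (log axis) of the miR-49 and miR-83 strands against hours after plating, 1 library per hour, with bars for the 95% Poisson interval of each count. The guides miR-49-3p and miR-83-3p run close together, from 12518 and 7394 at 6 h to 1360 and 2224 at 48 h, miR-49-5p climbs from 514 at 42 h to 1214 at 48 h, and miR-83-5p stays under 142 throughout.

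The level of miR-49-3p went down over the course but not steadily, and in some windows its median was higher than in the one before. Its median was 10253 in the 3 libraries of 5 h to 7 h, 4884 from 8 h to 14 h and 5521 from 15 h to 21 h. It was then 3185 from 22 h to 28 h, 3522 from 29 h to 35 h, 2521 from 36 h to 42 h and 1748 from 43 h to 48 h. The libraries of the first 3 hours, 9918 to 12518, lay above every later library, of which the highest was 8455 at 16 h. For miR-83-3p the same medians were 6286, 5126, 5337, 4439, 4659, 4012 and 2712. These stayed within 4012 and 5337 from 8 h to 42 h, and the 3 libraries from 46 h on, 2302, 2151 and 2224, were the lowest of all for this guide. The summed level of both guides was highest at 6 h, with 19912, and lowest at 47 h, with 3386. miR-49-3p supplied 62.9% of that sum at 6 h and 36.5% at 47 h.

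The passengers differed from each other more than the guides did. miR-49-5p had a mean of 1064 normalised counts (rank 129 of 272), with a lowest level of 514 at 42 h, a median of 1022 and a highest of 1870 at 6 h. miR-83-5p had a mean of 79.6 (rank 211), with a lowest level of 25.6 at 45 h, a median of 72.5 and a highest of 141 at 7 h. The ranges of the passengers did not overlap. The smallest count behind any of these values was 16, for miR-83-5p in the shallow 38 h library (101 normalised counts, 95% interval 57.9 to 165), and it was at least 29 in the other libraries. No member had a count of 0 in any library. Counting error alone thus spans a sizeable part of the hourly scatter of miR-83-5p, and little of that of the guides.

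The first comparison asked whether the strands changed steadily over the larval window of 8 h to 35 h (28 libraries), the span to which the study fitted a line with a 7 h wave. A change was called when the adjusted p of edgeR's quasi-likelihood test was under 0.05 and the fitted change over the window was at least 1 log2 unit. None of the 4 strands was called, against 25% of the 272 tested strands that were called falling and 27.9% that were called rising. Both strands of miR-49 passed the p limit with a downward slope just under the size limit. From the first to the last cycle of this window the median level of miR-49-3p went from 4884 to 3522, and the fitted change was -0.94 ± 0.29 (SE) log2 units (adjusted p = 0.00536). For miR-49-5p the medians were 1570 and 1109, and the fitted change was -0.81 ± 0.15 (adjusted p = 2.9e-05). By adjusted p alone 36% of all tested strands had a falling slope. The strands of miR-83 did not pass: the fitted change was -0.29 ± 0.16 for miR-83-3p (adjusted p = 0.105) and 0.01 ± 0.29 for miR-83-5p (adjusted p = 0.985). The median change of all tested strands was 0.06, so that relative to it the changes were -1.001, -0.87, -0.35 and -0.05 for miR-49-3p, miR-49-5p, miR-83-3p and miR-83-5p.

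The size limit decides the position of miR-49-3p. It was called falling, at a change of -1.07, when the wave was left out of the fit, and at -1.02, -1.03, -1.01, -1.01 and -1.10 when the library of 8 h, 14 h, 15 h, 28 h or 32 h was left out. With residuals modelled as autocorrelated, the p limit was missed by miR-49-3p (-0.90, adjusted p = 0.111) and by miR-49-5p (-1.22, adjusted p = 0.120).

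The second comparison asked for a rhythm with the 7 h period of the molting cycle, called at an adjusted p under 0.05 where the amplitude reached 0.5 log2 units. None of the 4 strands oscillated by these limits, against 14.3% of all tested strands. The amplitude was 0.24 ± 0.12 for miR-49-3p (adjusted p = 0.381), 0.13 ± 0.07 for miR-49-5p (0.422), 0.09 ± 0.07 for miR-83-3p (0.704) and 0.17 ± 0.13 for miR-83-5p (0.704). No member had an unadjusted p under 0.05, while 82 of the 272 strands did, and the other tools and settings tried called no member either. The median amplitude of all tested strands was 0.14 log2 units, which lies between the amplitudes of the guides.

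The third comparison covered the hours after feeding, 5 h to 10 h (6 libraries), with a line alone. In this window miR-49-3p was at 9918, 12518, 10253, 4884, 8398 and 7079 normalised counts, and miR-83-3p was at 5577, 7394, 6286, 4554, 5726 and 5455. The 8 h library was the lowest of the 6 for both guides. Its values for the passengers were 1675 for miR-49-5p and 113 for miR-83-5p, both inside the range of the other hours. None of the 4 strands was called in either direction by edgeR, against 1.47% of strands called falling and 8.46% called rising. The fitted changes were -0.74 ± 0.41 for miR-49-3p, -0.13 ± 0.18 for miR-49-5p, -0.26 ± 0.26 for miR-83-3p and 0.62 ± 0.39 for miR-83-5p (adjusted p = 0.294, 0.682, 0.558 and 0.359). At an unadjusted p under 0.05 there were 72 of 272 strands and none of the members. All strands together had a median change of 0.17, or of -0.03 with TMM factors.

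The fourth comparison covered 36 h to 48 h (13 libraries), after the larval window. Here the fitted slopes of the passengers had opposite signs. Both were lower at 42 h than at 36 h, at 51.2 against 115 normalised counts for miR-83-5p and 514 against 727 for miR-49-5p. After 42 h miR-49-5p went up to 1214 at 48 h, and miR-83-5p was lowest at 45 h, with 25.6. miR-83-5p fell, from 115 normalised counts at 36 h to 39.5 at 48 h, with a fitted change of -1.76 ± 0.24 (edgeR, adjusted p = 1.5e-05). It was the single member called, against 19.9% of strands called falling and 12.9% called rising. It was called under every alternative run that retained it, with changes of -1.93 to -1.24, and without the shallow 38 h library at -1.72 (adjusted p = 4.7e-05). A fit with autocorrelated residuals was not run for single strands in this window. All 6 libraries from 43 h on lay below all 7 libraries from 36 h to 42 h, which ranged from 51.2 to 115.

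miR-49-5p had an upward slope in the same hours. Its level was 727 normalised counts in the 36 h library and 514 in that of 42 h, was still at 593 by 44 h, and then reached 892 at 46 h and 1214 at 48 h. The fitted change was 0.67 ± 0.25 (edgeR, adjusted p = 0.0262), past the p limit but under the size limit, and 19.9% of all tested strands passed the p limit with a rising slope. Without the library of 47 h or 48 h the adjusted p was 0.0759 or 0.154, and the change was 0.57 or 0.42. With each library left out in turn the change ranged from 0.42 to 0.88 (without 36 h). The guides had downward slopes: the fitted change was -0.91 ± 0.38 for miR-49-3p (adjusted p = 0.0432) and -0.82 ± 0.29 for miR-83-3p (adjusted p = 0.0202). By adjusted p alone 50% of all tested strands had a falling slope, and the median change of all strands was -0.51, which moved to 0.02 with TMM factors and to -0.07 with DESeq2 size factors. Relative to that median the changes were -0.41 for miR-49-3p, -0.31 for miR-83-3p, 1.18 for miR-49-5p and -1.25 for miR-83-5p.

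The scaling therefore matters for the guides in these hours. With TMM factors neither guide passed (-0.40 for miR-49-3p and -0.30 for miR-83-3p, adjusted p = 0.422 for both), whereas miR-49-5p was called rising (1.19, adjusted p = 0.000663) and miR-83-5p falling (-1.24, adjusted p = 0.00029). Single libraries also moved the guides across a limit. Without 36 h or 37 h both guides were called falling (-1.24 and -1.16 for miR-49-3p, -1.07 and -1.02 for miR-83-3p). The adjusted p of miR-49-3p was 0.0594 without 38 h, 0.0787 without 39 h, 0.0580 without 40 h, 0.0505 without 41 h, 0.0508 without 43 h, 0.101 without 46 h, 0.124 without 47 h and 0.128 without 48 h. That of miR-83-3p was 0.0507 without 46 h, 0.0708 without 47 h and 0.0807 without 48 h. The growing share of the miR-35 family in the libraries moves with these slopes, and its part in them was not tested beyond the change of scaling.

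**Figure D2:**
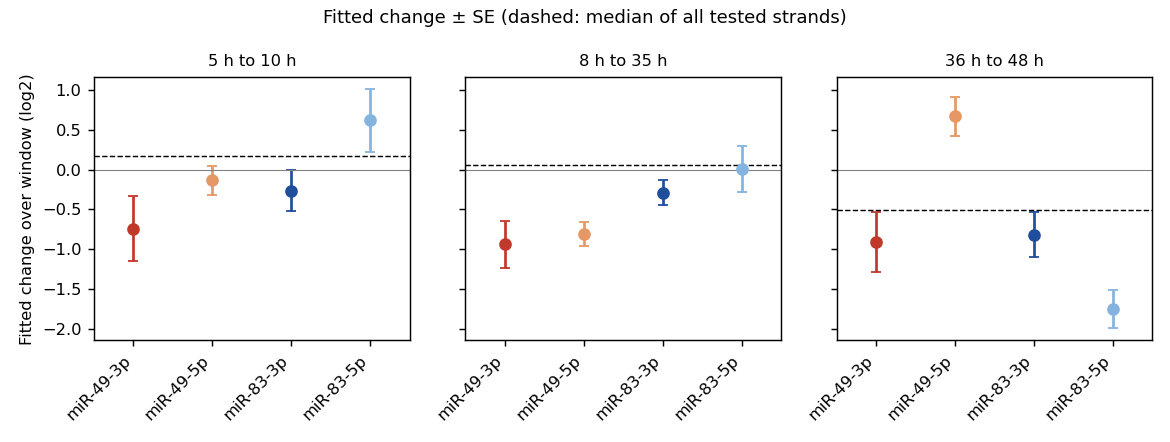
Fitted change over the window (log2 units, points) with its SE (bars) for each strand in the 3 windows, from edgeR with total-count scaling. Dashed lines mark the median of the 272 tested strands, which is -0.51 in 36 h to 48 h, where miR-49-5p (0.67) lies above 0 and miR-83-5p (-1.76) lies lowest.

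The fifth comparison set the guides against each other. The ratio of their counts within a library is free of the scaling between libraries. miR-49-3p was the higher guide early and miR-83-3p the higher one late: the ratio of miR-49-3p to miR-83-3p was 1.78 at 5 h, its highest value, and 0.504 at 46 h, its lowest, with a median of 0.772. It was above 1 in 11 libraries, namely the 3 of 5 h to 7 h, 4 of the 7 from 8 h to 14 h and 4 of the 7 from 15 h to 21 h. All libraries from 22 h on were below 1. Between 8 h and 35 h the log2 ratio changed by -0.65 ± 0.16 (edgeR with the library as a factor, adjusted p = 0.00129). The change passed the p limit and stayed under the size limit of 1 log2 unit. Over 86 pairs of strands that share a seed in 14 families, 30.2% were called and 48.8% passed by adjusted p alone, so a ratio that drifts was common among such pairs. With autocorrelated residuals the change was -0.63 and the adjusted p was 0.0810. The pairs share strands and are not independent, and the families were listed by name from general knowledge. No pair was called oscillating by edgeR (0%), with 7 at an unadjusted p under 0.05 and 0 by limma. The amplitude for miR-49-3p over miR-83-3p was 0.15 ± 0.07 (adjusted p = 0.690).

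The sixth comparison was between guide and passenger of the same hairpin. The guide of miR-83 exceeded its passenger by a median of 56.5-fold over the 44 libraries, and that of miR-49 by 3.86-fold. The ranges did not overlap, at 28.5-fold (36 h) to 133-fold (16 h) for miR-83 and 1.12-fold (48 h) to 7.38-fold (17 h) for miR-49. Relative to its guide, miR-49 thus had much more passenger strand than miR-83 in every library. From 8 h to 35 h the log2 ratio of guide to passenger changed by -0.11 ± 0.31 for miR-49 (edgeR, adjusted p = 0.789) and by -0.24 ± 0.34 for miR-83 (adjusted p = 0.596), and neither was called, against 27.5% of the 102 hairpins with both strands tested. The amplitudes of the ratio were 0.20 ± 0.13 (adjusted p = 0.511) and 0.22 ± 0.14 (adjusted p = 0.495), and neither oscillated, against 19.6% of hairpins.

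**Figure D3:**
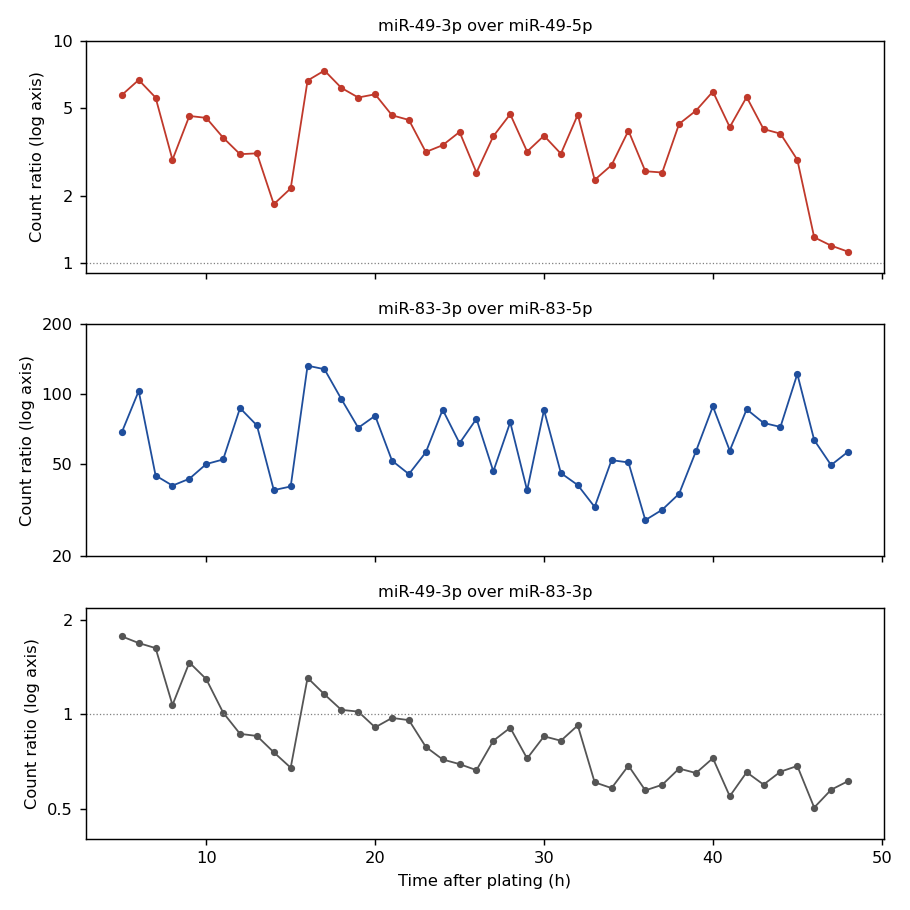
Ratios of counts within each library (log axes) against hours after plating, for guide over passenger of miR-49 (top) and miR-83 (middle) and for the guides over each other (bottom), with dotted lines at 1. The top ratio is 1.12 at 48 h, the middle one peaks at 133 at 16 h, and the bottom one is below 1 in all libraries from 22 h on.

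In the last hours the strands of miR-49 approached each other. Between 42 h and 48 h miR-49-3p went from 2876 to 1360 normalised counts, while miR-49-5p went from 514 to 1214. Their ratio had first gone up, from 2.59 at 36 h and 2.55 at 37 h to 5.93 at 40 h, and it was 5.60 at 42 h. It then went to 4.01 by 43 h and 2.92 by 45 h, and in the final 3 libraries it was 1.30, 1.19 and 1.12. A line over 36 h to 48 h covers the rise up to 40 h as well as the later fall. A test of the ratio from 36 h to 48 h was chosen after these values had been seen. It gave a change of -1.53 ± 0.57 for miR-49 (edgeR, adjusted p = 0.0402), which was called, and of 1.04 ± 0.43 for miR-83 (adjusted p = 0.0606), which was not, against 29.4% of hairpins. The call of miR-49 was lost without 38 h (adjusted p = 0.0647), 39 h (0.0671), 40 h (0.0514), 41 h (0.0511), 46 h (0.0882), 47 h (0.128) or 48 h (0.172), without the filter on low counts (0.0504) and with autocorrelated residuals (-1.20, 0.690). The ratio of miR-83 was called without 40 h, 47 h or 48 h (1.15, 1.32 and 1.35, adjusted p = 0.0311, 0.0269 and 0.0307).

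From hour to hour the guides moved together, while the steps of each passenger had a correlation near 0 with those of its guide. Over the 44 libraries Pearson's r of log2 levels between miR-49-3p and miR-83-3p was 0.94, and it was 0.94 without the 38 h library, 0.93 within 8 h to 35 h and 0.97 within 36 h to 48 h. For the 43 hourly steps r was 0.92, and the guides stepped in the same direction in 38 of them. This closeness was not particular to the pair. The step r of miR-49-3p was 0.94 with miR-234-3p, 0.87 with miR-790-5p and 0.81 with miR-791-3p. That of miR-83-3p was 0.89 with miR-234-3p and 0.85 with miR-56-3p. Between guide and passenger of one hairpin the step correlation was 0.13 for miR-49 (the same direction in 23 of 43 steps) and -0.05 for miR-83 (23 of 43). The steps of miR-83-5p carry a sizeable counting error, so an r near 0 does not show that it moved apart from its guide. The level correlation of the miR-49 strands was 0.62 over all libraries and -0.81 within 36 h to 48 h. These correlations are a description. The points share a library, its depth and its place in a single time course.

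**Figure D4:**
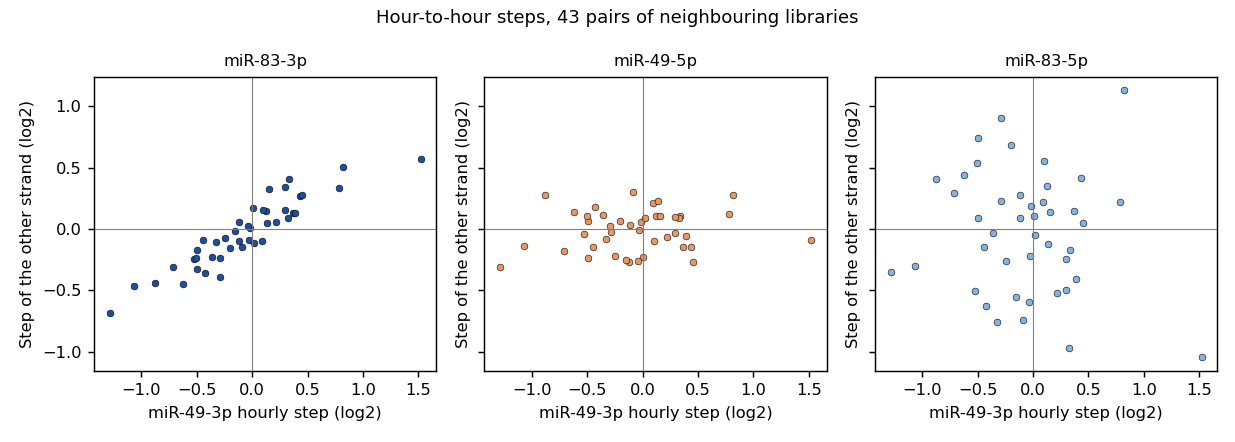
Hourly steps (log2 units) of miR-83-3p, miR-49-5p and miR-83-5p, each against the step of miR-49-3p, with 1 point for each of 43 pairs of neighbouring libraries. The points of miR-83-3p lie along a line (r = 0.92), and those of miR-49-5p (r = 0.13) and miR-83-5p (r = -0.11) do not.

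The largest step of miR-49-3p came between 15 h and 16 h, from 2936 to 8455 normalised counts, a 2.88-fold difference. miR-83-3p went from 4346 to 6453 at that step (1.48-fold), whereas miR-49-5p went from 1357 to 1271 and miR-83-5p from 109 to 48.6. Both guides stepped up at that hour and neither passenger did. At that step 29 of the 272 strands (10.7%) moved by 1 log2 unit or more in either direction, and the median step of all strands was -0.10. The largest downward step of miR-49-3p was from 32 h to 33 h, from 5189 to 2122, when miR-83-3p went from 5624 to 3499 and miR-49-5p from 1114 to 898. A step down and back up was centred on 8 h, with 10253, 4884 and 8398 for miR-49-3p at 7 h, 8 h and 9 h and 6286, 4554 and 5726 for miR-83-3p. At 26 h and 27 h miR-49-3p was at 2289 and 4048 and miR-83-3p at 3451 and 4913. At these other steps, at 8 h, 9 h, 27 h and 33 h, both passengers moved in the direction of the guides, and at 27 h miR-83-5p went from 44.1 to 106 (2.40-fold), a larger factor than that of either guide (1.77-fold and 1.42-fold). In each of these steps miR-49-3p moved by a larger factor than miR-83-3p, and each rests on single libraries without a repeat.

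Some strands of other hairpins had courses much like those of miR-49-3p and miR-83-3p. By Pearson's r of log2 levels over the 44 libraries, the strands most like miR-49-3p were miR-234-3p (0.973), miR-790-5p (0.956) and miR-791-3p (0.940), the last from a microRNA known in neurons that sense carbon dioxide. miR-83-3p came next at 0.939. The strands most like miR-83-3p were miR-49-3p (0.939), miR-56-3p (0.939), which belongs to the broadly expressed miR-51 family, and miR-234-3p (0.928). The jump between 15 h and 16 h was shared, from 1100 to 2397 normalised counts for miR-234-3p, from 688 to 1587 for miR-790-5p and from 26339 to 98832 for miR-56-3p. The strands most like miR-49-5p were others: miR-54-5p (0.915), miR-1018 (0.907) and miR-52-3p (0.895). miR-83-5p had a mean under 100 and was not ranked. These values are a description, with no p, since all strands share the same 44 libraries.

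**Figure D5:**
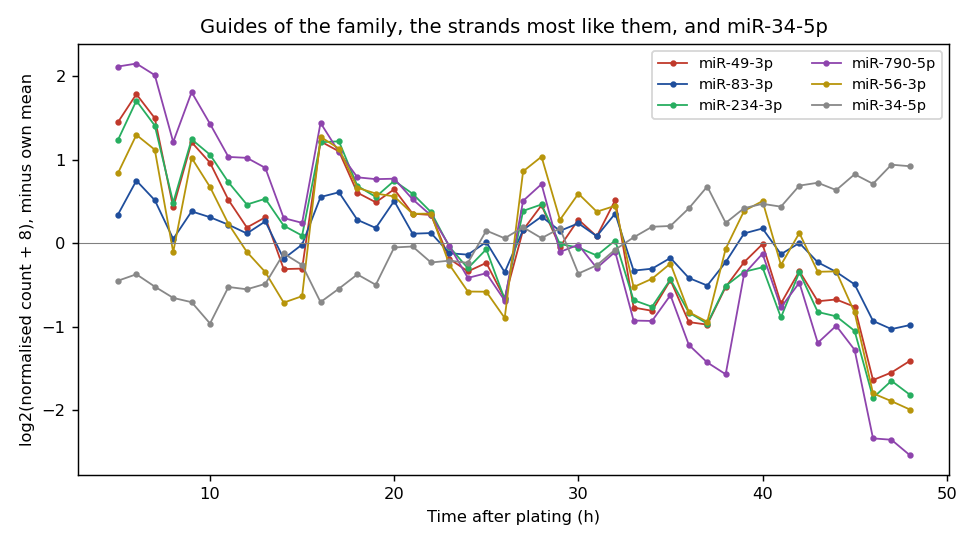
Log2(normalised count + 8) of each strand minus its own mean over the 44 libraries, against hours after plating, for the guides of the family, strands like them and miR-34-5p. miR-791-3p, also among the strands most like miR-49-3p, is not drawn. miR-49-3p, miR-83-3p, miR-234-3p, miR-790-5p and miR-56-3p share steps at 8 h, 16 h and 46 h. Over the whole course miR-34-5p goes the other way, from 2704 normalised counts at 5 h to 7098 at 47 h. It too steps down at 8 h (2575 to 2344) and at 46 h (6556 to 6055).

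miR-34, the partner of miR-83 in distal tip cell migration, was set beside the miR-29-like guides. Its 3p strand had the higher mean of the hairpin here, though not the higher level in every library. At 5 h miR-34-3p was at 1745 normalised counts and miR-34-5p at 2704, and at 25 h they were at 10098 and 4104. miR-34-5p had a mean of 3923, close to that of miR-83-3p, but it was lowest at 10 h with 1893 and highest at 47 h with 7098. The r of miR-34-5p with miR-83-3p was -0.75, rank 270, and with miR-49-3p -0.82, rank 269. Both ranks are near the bottom of the tested strands of other hairpins. The r of miR-34-3p with the guides is not given here. From 8 h to 35 h the fitted change was 0.78 ± 0.11 for miR-34-5p (edgeR, adjusted p = 5.2e-07), under the size limit, and 1.78 ± 0.28 for miR-34-3p (adjusted p = 2.4e-06), which rose. miR-34-3p also oscillated, with an amplitude of 0.54 ± 0.11 (adjusted p = 0.00172). From 36 h to 48 h the fitted change was 0.52 ± 0.12 for miR-34-5p (adjusted p = 0.00143), and -0.90 ± 0.14 for miR-34-3p (adjusted p = 6.7e-05), both under the size limit, where that of miR-83-3p was -0.82. The strands of miR-34 thus had slopes of opposite sign, and that of miR-34-3p had the sign of the slope of miR-83-3p. The differences between these strands were not tested.

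Strands of other families that vertebrates also have were listed as a frame for the miR-29-like guides. All but miR-34-5p were the strand of their hairpin with the higher mean level here. miR-34-5p had a lower mean than miR-34-3p and is kept in the counts and medians below. Of the 12 listed strands 12 were tested. From 8 h to 35 h 1 rose (let-7-5p, a regulator of late larval cell fates) and 3 fell (miR-57-5p, miR-228-5p and the neuronal miR-124-3p), and 8 were not called, where 27.9% of all tested strands rose and 25% fell, so the falls are at the background. Their median change was -0.05, where all strands had 0.06 and the miR-29-like guides -0.94 and -0.29. Of the listed strands, 1 oscillated, miR-235-3p, against 14.3% of all strands. From 5 h to 10 h 2 rose, lin-4-5p and let-7-5p, and no listed strand fell, against 8.46% and 1.47% of all strands. From 36 h to 48 h 2 fell, lin-4-5p (-1.07 ± 0.12) and miR-228-5p (-1.42 ± 0.30), which is near the background of 19.9%, and none rose, against 12.9%. The median was -0.66 against -0.51 for all strands, where the miR-29-like guides had -0.91 and -0.82.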

How the data were processed

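Every row named miR-49 or miR-83 was used in all 44 libraries. The authors deposited raw counts per mature strand, the unit of every test. According to the methods, the authors trimmed adapters with QuasR and aligned reads to ce10 with Bowtie through QuasR, allowing up to 100 hits per read. They counted same-strand reads starting within 3 bp of a mature 5′ end of miRBase v22 (lifted to ce10). Reads that fit several loci can thus be shared between them. Tool versions are not given in the sources used here. The deposited log2 table equals log2(normalised count + 8) within 0.0005 and was not tested.

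Strands with a mean of at least 10 counts (272 of 437) were fitted in edgeR 4.0.16 (quasi-likelihood, R 4.3.3) with total-count scaling. Over the 28 libraries of 8 h to 35 h, with 24 residual degrees of freedom, the model held a line and a cosine and sine of 7 h, and those for 5 h to 10 h and 36 h to 48 h a line alone. Ratios had 1 row per hairpin (102) or per pair sharing a seed (86, from families named from general knowledge in place of a match of mature sequences), with the library as a factor. P-values were Benjamini-Hochberg adjusted over all rows. A ratio codes guide over passenger, or miR-49-3p over miR-83-3p. Alternatives were TMM factors and DESeq2 size factors (both estimated within the window), DESeq2 1.42.0, limma 3.58.1 (8 or 1 added), other filters, periods of 6.5 h and 7.5 h, a spline with 4 degrees of freedom, a fit without the wave, autocorrelated residuals (nlme 3.1.168), and each library left out in turn. Autocorrelated residuals were used for single strands from 8 h to 35 h alone, and for the ratios in each window tested. Scripts were tested on simulated data. Figures used Python 3.11.15 and matplotlib 3.10.9.

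Named strands were the members and, for each with a mean of at least 100, the 3 strands of other hairpins with the highest r. A pair of lists was added (miR-34, and strands of families that vertebrates share). The members and lists were chosen with earlier results of these data known. The ratio test of 36 h to 48 h was chosen after seeing the values.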

Additional observations from a re-analysis of the deposited data

How the results depend on the processing

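Neighbouring hours are not independent, and the counts of calls fell most where residuals were modelled as autocorrelated: from 28 to 15 hairpins for the strand ratio of 8 h to 35 h, from 30 to 12 for that of 36 h to 48 h, and from 26 to 10 pairs that share a seed. In that fit the ratio of miR-49 changed by 0.055 from 8 h to 35 h and by -1.20 from 36 h to 48 h, where no filter gave -1.53 and a lost call (adjusted p = 0.0504). The oscillating strands numbered 39 with a period of 7 h and 21 with 6.5 h, with no member among them. The change of miR-83-5p from 8 h to 35 h (0.01) was -0.040 in limma, -0.090 with autocorrelated residuals and -0.064 without the wave, so its sign is not set by these data. For miR-49-3p it was -1.07 without the wave. From 36 h to 48 h miR-49-5p reached 1.19 with TMM factors, 1.11 with DESeq2 size factors and 1.11 in the DESeq2 test. Except where stated, the cause was not tested.

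With each library left out in turn, the change from 8 h to 35 h ranged from -1.10 to -0.86 for miR-49-3p and from -0.20 to 0.12 for miR-83-5p, and that from 36 h to 48 h from -1.24 to -0.73 for miR-49-3p and from -1.07 to -0.67 for miR-83-3p. The strand ratio of 36 h to 48 h ranged from -2.08 to -1.16 for miR-49 and from 0.69 to 1.35 for miR-83. The calls of 5 h to 10 h numbered 27 and ranged from 13 (without 6 h or 9 h) to 30, with 17 without 5 h. The minimum mean of 100 counts removed miR-83-5p. No paired analysis was possible because there was 1 library per hour and the labels give no replicate numbers. The precision of miR-83-5p is limited by counts as low as 16.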
